A study of Mus musculus with 12 samples.

Results

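The subject is the interaction between genotype and diet in mouse epididymal white fat: the genes for which loss of TET proteins changed the transcript level differently in mice on a normal diet and on a high-fat diet. For each gene the difference between knockout and wild type (the knockout effect) was estimated on each diet, and the effect on normal diet was subtracted from the effect on high-fat diet. Of 25232 genes listed, 15597 had at least 0.5 CPM (counts of reads divided by the total of each library) in at least 3 libraries and were tested. The interaction passed the test (limma, Benjamini-Hochberg adjusted p under 0.05) for 4476 of them, 28.7% of those tested. The knockout effect was higher on the high-fat diet than on the normal diet for 1550 (9.94%) and lower for 2926 (18.8%). TMM scaling, which corrects for a few abundant genes, gave 1984 higher and 2533 lower. The members described here are the 4078 of these whose knockout effect was opposite in sign on the 2 diets with both effects called (105 genes), called on the normal diet only (lost, 214 genes) or called on the high-fat diet only (new, 3759 genes). The other interaction genes had effects of the same sign called on both diets (127 larger and 10 smaller on the high-fat diet) or no called effect on either (261 genes, 1.67%).

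TET enzymes oxidise 5-methylcytosine, the methylated base found mainly at CG dinucleotides, and so start its removal from DNA. White fat stores triglyceride that adipocytes take up or make from glucose, releases it by lipolysis, and secretes hormones such as adiponectin, leptin and resistin. During high-fat feeding epididymal fat is known to gain macrophages and lymphocytes and to lower its transcripts for lipid synthesis.

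The 4 groups were epididymal fat of C57BL/6 mice with the genotype labelled WT or TET KO (TKO), each on the diet labelled Normal Diet (ND; CD in the extraction protocol) or High Fat Diet (HFD), with 3 biological replicates per group. They are written ND_WT, ND_TKO, HFD_WT and HFD_TKO. The series title places the ablation in adipocytes. The driver of the deletion, the alleles and exons removed, the age and the length of feeding are not given in the sources used here. Fat was sequenced whole, so the values are those of a mixed tissue in which fewer cells of a type and less RNA per cell cannot be told apart. Gene positions are those of RefSeq on GRCm38.p6, the assembly that mm10 stands for. Levels below are CPM, and every difference is a log2 difference on the log2(CPM + 1) scale, which understates the change of genes with few reads.

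Libraries held 20973140 to 25606629 reads. Adipocyte transcripts were abundant in every group (Adipoq, adiponectin, 1349 to 6448 CPM), and the epididymal gene list summed to at most 3.90 CPM. No TET gene was called lower in TKO on either diet. Tet1 was higher in TKO on both (0.97 on ND, adjusted p = 0.019; 0.76 on HFD, adjusted p = 0.01), and its ND call was lost when ND_WT replicate 2 was dropped (adjusted p = 0.0646), and likewise when ND_TKO lost replicate 1 (0.0623) or replicate 3 (0.0769). Tet2 differed by -0.06 on ND and -0.47 on HFD, and Tet3 by 0.22 and -0.18, none of them called. Reads from undeleted exons or from cells outside the adipocyte lineage cannot be told apart in these gene-level values, so the values do not verify the genotype labels, and WT and TKO here stand for the libraries labelled so. The interaction was not called for Tet1 (-0.22, adjusted p = 0.63) or Tet2 (-0.41, adjusted p = 0.3), and it was called for Tet3 (-0.40, adjusted p = 0.036) with no called effect on either diet. In a principal component analysis ND_WT replicate 3 and HFD_TKO replicate 1 lay apart from their groups on the second component (-6.21 against -32.6 and -32, and 44.2 against 18.5 and 26.2). Without ND_WT replicate 3 there were 299 opposite, 447 lost and 3769 new genes, and without HFD_TKO replicate 1 there were 208, 296 and 3608. Both are kept in the values that follow, and each is named where leaving it out ends a call.

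On their own, the knockout effects were called for 5.7% of tested genes on ND and 46.7% on HFD. Opposite effects were found for 105 genes, 0.673% of those tested. The smaller direction, 44 genes (0.282%), was higher in TKO on ND and lower in TKO on HFD, with a median effect of 0.71 on ND, -0.76 on HFD and -1.69 for the interaction. The other 61 genes (0.391%) were lower in TKO on ND and higher on HFD, with medians of -0.55, 0.52 and 1.07. Over all tested genes these medians were -0.06, -0.10 and -0.06. The signs follow from how the genes were chosen. The TKO and WT libraries did not overlap on either diet for 44 of the 44 and 60 of the 61 genes. That count also follows largely from choosing genes called on both diets. Interaction genes called with the same sign on both diets gave 126 of 127 and 10 of 10. For 1 diet at a time, groups that do not overlap were found for 23.8% of all tested genes on ND and 59.6% on HFD.

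**Figure D1:**
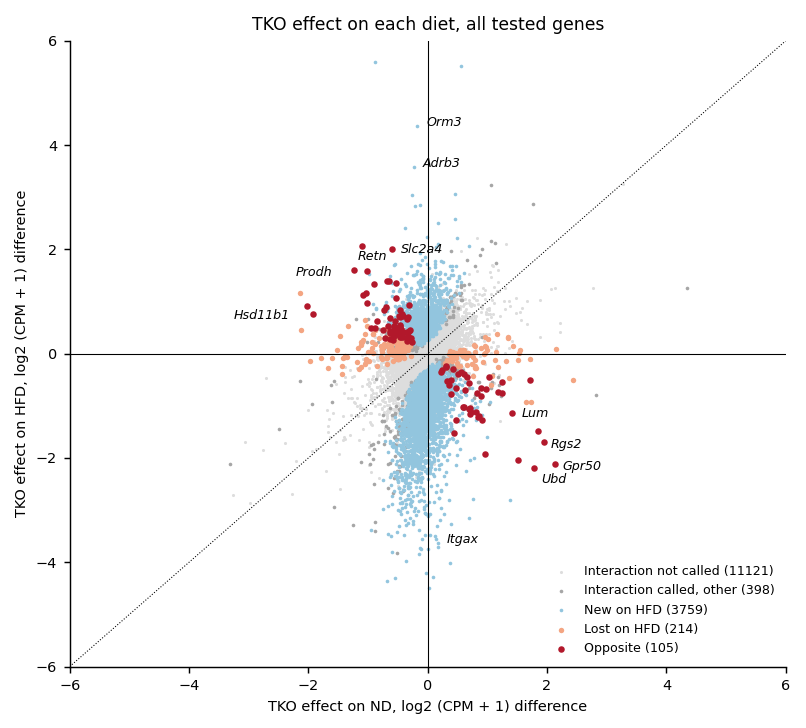
Knockout effect on normal diet (x axis, log2 difference TKO minus WT) against knockout effect on high-fat diet (y axis, same unit), 1 point per tested gene (n = 15597), coloured by class, with the line of equal effects dotted. The 105 opposite genes lie in the upper left and lower right fields. Most of the 214 lost genes lie near 0 on the y axis. Most of the 3759 new genes lie near 0 on the x axis and spread along the y axis.

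By group means, the TKO groups of both diets lay between the WT groups in most opposite genes, a position that follows largely from how the genes were chosen. The ND_TKO mean was between the ND_WT and HFD_WT means for 39 of 44 genes of the first direction and 56 of 61 of the second, and the HFD_TKO mean for 35 of 44 and 55 of 61. Interaction genes with no called effect on either diet had similar shares, 82.4% for ND_TKO and 89.7% for HFD_TKO, so these counts say nothing particular about the opposite genes. The median difference between HFD and ND was 1.54 in WT and -0.07 in TKO for the first direction, and -1.11 in WT and -0.02 in TKO for the second. These medians are a description of the chosen genes, and no test was made of them.

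Among the genes lower in TKO on ND and higher in TKO on HFD were several that handle glucose and the carbon it supplies. Mlxipl, which encodes ChREBP, the glucose-responsive activator of lipid synthesis genes, had levels on ND of 98.9, 85.8 and 66.1 CPM (WT) and 39.8, 42.2 and 36.8 CPM (TKO), and on HFD of 25.2, 24.5 and 23.8 CPM (WT) and 49.0, 62.3 and 57.8 CPM (TKO). On ND every WT library was above every TKO library, and on HFD every WT library was below every TKO library. The knockout effect was -1.04 on ND and 1.16 on HFD, an interaction of 2.21 (SE 0.19, adjusted p = 1.5e-05). Slc2a4 (chromosome 11, 69942286 to 69948216), the insulin-responsive glucose transporter GLUT4, had levels on ND of 280.4, 219.6 and 215 CPM (WT) and 155, 146 and 166 CPM (TKO), and on HFD of 35.7, 34.3 and 39.8 CPM (WT) and 119, 172 and 162 CPM (TKO). The order again reversed between the diets without overlap, by far more on HFD (2.0) than on ND (-0.60), with an interaction of 2.60 (SE 0.19, adjusted p = 7.8e-06). Its ND effect was not called without ND_WT replicate 1 (adjusted p = 0.105) or any 1 of the ND_TKO replicates (0.0596 to 0.0752), while the interaction stayed called in every alternative.

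Pck1, the cytosolic PEPCK that supplies glycerol for triglyceride in fat, had the most reads of the 105 genes. It measured 4426, 4912 and 3034 CPM in WT against 1778, 1833 and 2095 CPM in TKO on ND, and 304, 314 and 340.0 CPM in WT against 586, 774 and 747 CPM in TKO on HFD. The groups did not overlap on either diet, and the effects were -1.09 on ND and 1.13 on HFD (interaction 2.22, SE 0.24, adjusted p = 5.3e-05). Pnpla3, a lipase-like lipid droplet protein and a known target of ChREBP, had effects of -0.69 and 1.40 (interaction 2.09, SE 0.25, adjusted p = 0.00011). Its ND call was lost with TMM scaling (adjusted p = 0.0735) and in 10 other alternatives, so its place among the opposite genes rests on the settings.

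Prodh, proline dehydrogenase, the first enzyme of proline breakdown, was also among the 61 genes. It stood at 73.1, 68.7 and 63.0 CPM in the wild type and 25.7, 26.8 and 32.9 CPM in the knockout on ND. On HFD it stood at 6.91, 6.46 and 8.70 CPM in WT and 21.3, 28.5 and 23.3 in TKO. The 6 TKO libraries lay close together across the diets, and the WT libraries formed separate groups above and below them. Its interaction was 2.84 (SE 0.19, adjusted p = 3.6e-06), from -1.24 on ND and 1.60 on HFD. Phgdh and Psat1, which catalyse the first steps of serine synthesis, were picked out after their values were seen. Phgdh had effects of -0.54 and 1.06 (interaction 1.60, adjusted p = 1.6e-05), and Psat1 of -0.50 and 0.47 (0.97, adjusted p = 0.00033). The ND effect of Psat1 was not called with edgeR (adjusted p = 0.0551) or without ND_WT replicate 2 (0.0509) or ND_TKO replicate 1 (0.0533). Pygl and Pygb, glycogen phosphorylases chosen in the same way, had interactions of 1.58 (adjusted p = 6.0e-05) and 1.21 (adjusted p = 0.00016).

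Retn, the gene of the adipocyte hormone resistin, was another of the 61. It stood at 1405, 1502 and 1317 CPM in WT and 618, 648 and 829.9 CPM in TKO on ND, and at 131, 115 and 94.9 CPM in WT and 285, 377 and 372 CPM in TKO on HFD. The ND_WT libraries were the highest and the HFD_WT libraries the lowest, with no overlap among the 4 groups. The effects were -1.02 and 1.59, and the interaction was 2.61 (SE 0.21, adjusted p = 1.3e-05). Hsd11b1, the enzyme that regenerates active glucocorticoid inside fat cells, had levels on ND of 305, 405 and 214 CPM (WT) and 72.4, 83.8 and 77.6 CPM (TKO), and on HFD of 46.2, 37.7 and 53.9 CPM (WT) and 102, 73.1 and 63.0 CPM (TKO). Its reversal was uneven, -1.92 on ND and 0.76 on HFD, and the HFD effect was not called without HFD_WT replicate 2 (adjusted p = 0.0605) or HFD_TKO replicate 1 (0.0591). The interaction was 2.68 (SE 0.31, adjusted p = 8.8e-05). The receptor genes Ghr (growth hormone receptor) and Tshr (thyrotropin receptor), picked out after their values were seen, had interactions of 1.14 (adjusted p = 8.6e-05) and 0.85 (adjusted p = 0.00082). Their ND effects were not called with TMM scaling (adjusted p = 0.0787 and 0.0505) and in several other alternatives.

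Alb, the serum albumin gene, had the highest interaction of the 61, 3.16 (SE 0.33, adjusted p = 5.1e-05), at ND levels of 21.2, 15.4 and 31.6 CPM (WT) and 10.7, 7.37 and 11.3 CPM (TKO) and HFD levels of 1.41, 1.11 and 0.779 CPM (WT) and 6.28, 8.68 and 8.18 CPM (TKO). Its ND effect was not called without ND_WT replicate 1 (adjusted p = 0.0663) or ND_TKO replicate 2 (0.064). Lratd1 had an interaction of 2.25 (adjusted p = 0.00014), and its ND effect was not called with edgeR (adjusted p = 0.0514) or in 4 of the runs that left out 1 library. Cry2, a repressor of the circadian clock, had effects of -0.33 and 0.70 (interaction 1.03, adjusted p = 5.9e-05), and Tef, a clock-driven transcription factor, of -0.52 and 0.40 (0.92, adjusted p = 0.0016). The ND call of Cry2 was lost with TMM scaling (adjusted p = 0.0584), and that of Tef without ND_WT replicate 1 (0.096). The circadian clock list, which holds both, had 0 opposite genes without ND_WT replicate 1 or 2. It had 1 with edgeR, without any 1 of the ND_TKO replicates, without HFD_WT replicate 1 and without HFD_TKO replicate 2 or 3. The place of both genes among the opposite genes therefore rests on the settings.

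**Figure D2:**
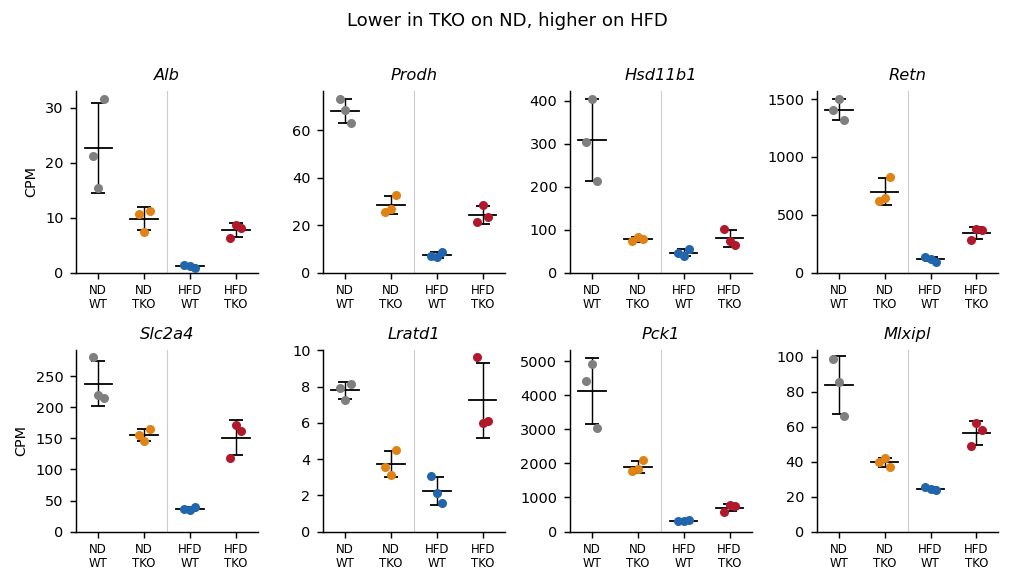
Levels in each library (y axis, CPM, starting at 0) of the 8 genes with the largest interaction among those lower in TKO on normal diet and higher in TKO on high-fat diet and at 5 CPM or more in at least 1 group; 1 panel per gene, 1 point per library, a horizontal line at the mean and a bar of 1 SD (n = 3). In Retn, Prodh and Pck1 the ND_WT libraries lie highest and the HFD_WT libraries lowest, with all 6 TKO libraries between them.

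The 44 genes of the other direction included signalling genes, a matrix proteoglycan and inflammation-linked genes. Gpr50, an orphan receptor related to the melatonin receptors, had 0 reads in each ND_WT library against 3.28, 4.03 and 2.98 CPM in ND_TKO, and 21.0, 23.8 and 25.8 CPM (WT) against 5.02, 4.92 and 3.98 CPM (TKO) on HFD. A count of 0 allows up to 0.143 CPM there, so the ND_TKO mean of 3.43 CPM was at least 24.0-fold higher, counting error only. On HFD the TKO libraries were all lower than the WT libraries. The interaction, which for this gene depends on the 1 CPM added before taking logs, was -4.26 (SE 0.18, adjusted p = 4.1e-07). Rgs2, a regulator that shortens G protein signalling, measured 17.4, 28.5 and 14.0 CPM in WT against 40.0, 109 and 101 CPM in TKO on ND, and 75.9, 85.4 and 77.1 CPM in WT against 24.1, 24.1 and 23.1 CPM in TKO on HFD. The ND_TKO libraries scattered widely but all lay above ND_WT, and the HFD_TKO libraries were close together, all below HFD_WT (interaction -3.64, SE 0.46, adjusted p = 0.00014).

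Lum (chromosome 10, 97565501 to 97572703), lumican, a proteoglycan that organises collagen fibrils, stood at 67.3, 58.9 and 75.4 CPM in WT and 189.5, 192 and 162 CPM in TKO on ND, and at 473, 555 and 427 CPM in WT and 223, 214 and 214 CPM in TKO on HFD. Neither diet showed any overlap, with effects of 1.42 on ND and -1.15 on HFD (interaction -2.57, SE 0.16, adjusted p = 2.6e-06). Ubd (chromosome 17, 37193892 to 37196101), the ubiquitin-like modifier FAT10, which inflammatory cytokines induce, had levels on ND of 4.15, 4.06 and 3.24 CPM (WT) and 22.4, 14.4 and 11.4 CPM (TKO), and on HFD of 327, 307 and 289.6 CPM (WT) and 100.1, 45.9 and 63.1 CPM (TKO). Its HFD_TKO libraries were below HFD_WT yet well above both ND groups (interaction -3.98, SE 0.36, adjusted p = 2.1e-05). The macrophage list summed to 1144 to 1778 CPM (WT) and 996.1 to 1342 CPM (TKO) on ND, and 7331 to 8122 CPM (WT) and 1837 to 2115 CPM (TKO) on HFD; it moved with Ubd on HFD but not on ND, and its part in these values was not tested.

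Pex5l, a gene related to the peroxisomal import receptor, measured 0.477, 0.507 and 0.822 CPM in WT against 4.15, 5.98 and 4.31 CPM in TKO on ND, and 7.30, 5.66 and 6.54 CPM in WT against 3.02, 1.01 and 1.37 CPM in TKO on HFD (interaction -3.33, SE 0.32, adjusted p = 3.1e-05). ND_TKO libraries were above ND_WT and HFD_TKO libraries below HFD_WT in every case. Serpina3f, a serine protease inhibitor gene of a mouse multigene cluster whose reads may be split with near-identical copies, had an interaction of -3.56 (adjusted p = 0.00025), and its ND effect was not called in 5 alternatives (adjusted p up to 0.0982). Retreg1, an endoplasmic reticulum autophagy receptor, had effects of 0.96 and -1.92 (interaction -2.88, adjusted p = 2.7e-05), and its ND effect was not called without ND_WT replicate 2 (adjusted p = 0.0539) or ND_TKO replicate 3 (0.0562). Ddit4, the mTORC1 inhibitor REDD1, had effects of 1.71 and -0.50 (interaction -2.22, adjusted p = 0.0001). Its HFD effect was not called with TMM scaling (adjusted p = 0.0911), edgeR (0.0993), DESeq2 (0.0745) or in 7 other alternatives.

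3 further genes were picked out after their values were seen. Peg3, an imprinted zinc finger gene, stood at 32.0, 36.3 and 27.7 CPM in WT and 70.2, 68.2 and 46.7 CPM in TKO on ND, and at 55.9, 50.8 and 59.7 CPM in WT and 17.8, 27.2 and 22.6 CPM in TKO on HFD (interaction -2.19, adjusted p = 7.2e-05). No library broke the order, but reads of Peg3 and of a gene listed as its antisense partner cannot be told apart without strand. Sgk1, a kinase gene that glucocorticoids induce, had effects of 0.72 and -1.11 (-1.84, adjusted p = 0.00036), and Ucp2, a mitochondrial carrier abundant in immune cells, of 1.03 and -0.45 (-1.49, adjusted p = 6.8e-05). The ND effect of Sgk1 was not called in 11 alternatives (adjusted p up to 0.146), and the HFD effect of Ucp2 was not called with TMM scaling (0.0681) or edgeR (0.0712).

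**Figure D3:**
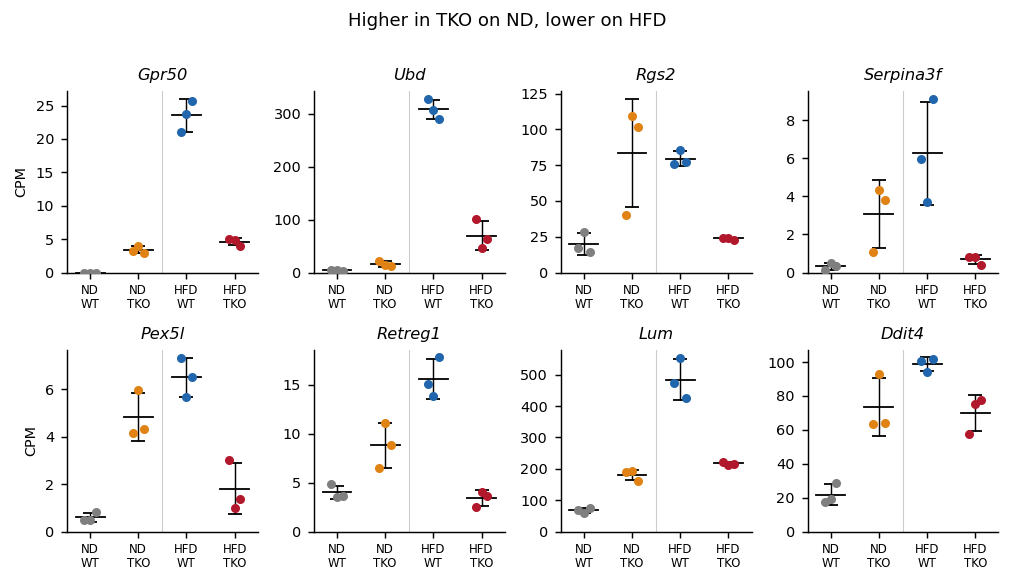
Levels in each library (y axis, CPM, starting at 0) of the 8 genes with the largest interaction among those higher in TKO on normal diet and lower in TKO on high-fat diet and at 5 CPM or more in at least 1 group; 1 panel per gene, 1 point per library, a horizontal line at the mean and a bar of 1 SD (n = 3). In Lum and Gpr50 the ND_WT libraries lie lowest and the HFD_WT libraries highest, with all 6 TKO libraries between them.

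The membership of the opposite class depended on the settings more than the interaction calls did. Of the 105 genes, 103 had the interaction called, and 103 had both effect signs, in every one of 20 alternatives, while 27 stayed in the class with both effects called in all 20. These 27 were Gpr50, Ubd, Rgs2, Pex5l, Lum, Peg3, Sptbn5, Tmem86a, Gng2, Aff2 and Ryr2 in the first direction, and Prodh, Retn, Pck1, Mlxipl, Cdkn2c, Phgdh, Pygl, Myl1, Pygb, Ppp2r5a, Gpx4, Lamb2, Ttc39c, Zfand3, Park7 and Jazf1 in the second. Leaving out ND_WT replicate 1, 2 or 3 gave counts of 41, 67 and 299. Leaving out ND_TKO replicate 1, 2 or 3 gave 69, 57 and 58. The count was 59 or 58 when HFD_WT replicate 1 or 2 was dropped, and 208 or 67 when HFD_TKO replicate 1 or 3 was dropped. DESeq2 gave 215.

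Because TET enzymes act mainly on methylated CG, the bases upstream of the start sites of the opposite genes show where such sites are; methylation itself was not measured. The 250 bases before the annotated start are printed below for 6 genes of this class, credited to RefSeq with build GRCm38.p6, 5′ to 3′ on the strand of the gene, with each CG in capitals. Mlxipl has 2 annotated starts, and the counts do not say which was used. They span chr5:135106641-135106890 and chr5:135089640-135089889 on the plus strand for Mlxipl, chr2:173152823-173153072 (plus) for Pck1, chr8:3655520-3655769 (plus) for Retn, chr16:18089191-18089440 (minus) for Prodh, chrX:71663417-71663666 (plus) for Gpr50 and chr1:144004150-144004399 (minus) for Rgs2.
Mlxipl, start 1: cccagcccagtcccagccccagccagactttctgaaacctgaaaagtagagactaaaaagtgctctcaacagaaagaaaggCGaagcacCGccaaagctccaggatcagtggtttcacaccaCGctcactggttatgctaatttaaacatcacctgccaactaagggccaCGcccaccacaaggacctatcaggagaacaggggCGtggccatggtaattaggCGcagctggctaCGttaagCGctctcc
Mlxipl, start 2: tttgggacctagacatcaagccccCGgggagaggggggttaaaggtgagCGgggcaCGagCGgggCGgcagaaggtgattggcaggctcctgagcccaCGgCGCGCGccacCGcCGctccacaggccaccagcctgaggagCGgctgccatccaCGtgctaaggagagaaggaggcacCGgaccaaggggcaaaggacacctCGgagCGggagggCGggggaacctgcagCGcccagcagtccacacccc
Pck1: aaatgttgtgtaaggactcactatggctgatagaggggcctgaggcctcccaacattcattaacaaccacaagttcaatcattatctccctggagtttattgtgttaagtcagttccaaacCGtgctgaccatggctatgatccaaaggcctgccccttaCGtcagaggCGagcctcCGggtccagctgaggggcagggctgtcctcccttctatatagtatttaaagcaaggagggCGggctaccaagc
Retn: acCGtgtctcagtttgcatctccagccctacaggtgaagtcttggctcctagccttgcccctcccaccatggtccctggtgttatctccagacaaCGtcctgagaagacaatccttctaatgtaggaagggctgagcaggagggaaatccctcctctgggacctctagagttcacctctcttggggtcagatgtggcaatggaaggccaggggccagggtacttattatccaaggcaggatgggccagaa
Prodh: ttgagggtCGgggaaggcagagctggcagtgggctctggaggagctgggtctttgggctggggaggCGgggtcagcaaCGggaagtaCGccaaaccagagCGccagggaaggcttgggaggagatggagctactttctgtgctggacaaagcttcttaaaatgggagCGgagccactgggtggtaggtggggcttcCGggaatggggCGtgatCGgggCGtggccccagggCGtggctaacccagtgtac
Gpr50: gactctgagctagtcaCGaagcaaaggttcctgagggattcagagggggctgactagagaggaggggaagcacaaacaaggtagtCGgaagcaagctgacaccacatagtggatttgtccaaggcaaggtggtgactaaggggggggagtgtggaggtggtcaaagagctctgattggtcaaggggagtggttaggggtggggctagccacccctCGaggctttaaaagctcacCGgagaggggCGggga
Rgs2: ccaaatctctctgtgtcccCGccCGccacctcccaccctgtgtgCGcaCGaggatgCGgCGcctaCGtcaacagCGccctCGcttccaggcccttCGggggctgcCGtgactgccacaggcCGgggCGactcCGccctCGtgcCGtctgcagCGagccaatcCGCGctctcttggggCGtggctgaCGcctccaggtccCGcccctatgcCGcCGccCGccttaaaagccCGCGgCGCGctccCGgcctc

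Among the genes lower in TKO on ND and higher on HFD, these windows hold 8 and 18 CG for the Mlxipl starts, 5 for Pck1, 2 for Retn and 11 for Prodh. Among those higher on ND and lower on HFD, they hold 5 for Gpr50 and 30 for Rgs2. Promoters were found for 33 of the 44 genes of the first direction (50 promoters, median 8.5 CG, 94.0% with at least 1) and for 52 of the 61 of the second (67 promoters, median 13, 100% with at least 1). The 15361 promoters of all tested genes that matched had a median of 14.0 CG, and 98.3% held at least 1. The letters CACGTG, the E-box bound by clock and other helix-loop-helix factors, read the same on both strands and hold 1 CG themselves. They occurred in 4 of the 50 (8%) and 5 of the 67 promoters (7.46%), and in 7.94% of promoters of all tested genes. Both shares are near the background, and among the printed windows the second Mlxipl start holds 1 such match.

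A knockout effect called on ND was not called on HFD for 214 genes (1.37% of those tested), 69 higher in TKO on ND (0.442%) and 145 lower (0.93%). The medians were 0.77 on ND and -0.04 on HFD for the first, and -0.59 and 0.06 for the second. A missing call does not show that the effect is 0: the HFD difference was under 0.25 in size for 54 of the 69 and 121 of the 145.

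Enzymes of lipid synthesis and sugar metabolism stood among the 145. Acacb (chromosome 5, 114146321 to 114250761), the acetyl-CoA carboxylase whose product malonyl-CoA restrains fatty acid oxidation, measured 399.5, 488 and 184 CPM in WT against 71.4, 115 and 104 CPM in TKO on ND, and 37.0, 39.9 and 32.7 CPM in WT against 38.4, 35.3 and 29.6 CPM in TKO on HFD. ND_WT was above ND_TKO in every library, with replicate 3 the lowest, while the HFD groups overlapped. The effect was -1.79 on ND and -0.09 on HFD (95% interval -0.73 to 0.55), and the interaction was 1.70 (SE 0.41, adjusted p = 0.0094). Tkt, transketolase of the pentose phosphate pathway, had levels on ND of 862, 702 and 554 CPM (WT) and 311, 305 and 347 CPM (TKO), and on HFD of 391, 399 and 379 CPM (WT) and 519, 420.2 and 424 CPM (TKO). All HFD_TKO libraries were above HFD_WT, but the HFD effect of 0.22 (95% interval -0.09 to 0.52) was not called, against -1.11 on ND (interaction 1.33, adjusted p = 0.00044).

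Gpt, alanine aminotransferase, measured 138, 111 and 167 CPM in WT against 59.0, 44.5 and 48.7 CPM in TKO on ND, and 88.9, 80.0 and 88.0 CPM in WT against 111, 73.1 and 66.1 CPM in TKO on HFD. The HFD libraries of both genotypes were mixed in order, while ND_TKO lay below ND_WT throughout (interaction 1.35, SE 0.26, adjusted p = 0.0027). Smyd1, a histone methyltransferase gene known for its role in muscle, had effects of -1.68 and -0.27 (interaction 1.40, adjusted p = 0.00093). Thbd, thrombomodulin of the endothelial surface, stood at 297, 256 and 308 CPM in WT and 92.7, 105 and 110.1 CPM in TKO on ND, and at 75.2, 77.7 and 74.8 CPM in WT and 64.8, 112 and 123 CPM in TKO on HFD. Its interaction was 1.81 (adjusted p = 0.00038), and without HFD_TKO replicate 1, the only HFD_TKO library below HFD_WT, the HFD effect was also called (adjusted p = 0.0004) and the gene became opposite.

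Cfd (chromosome 10, 79890853 to 79892655), adipsin, the complement factor D secreted by adipocytes, had the highest interaction of the lost genes. It had levels on ND of 10483, 13059 and 5225 CPM (WT) and 1380.0, 2083 and 2889 CPM (TKO), and on HFD of 157, 123 and 176 CPM (WT) and 149.9, 440.1 and 573 CPM (TKO). ND_TKO was below ND_WT in every library, and on HFD only HFD_TKO replicate 1 lay within the WT range. The effects were -2.14 on ND and 1.16 on HFD, with an interaction of 3.30 (SE 0.66, adjusted p = 0.003). The HFD effect passed the test with TMM scaling (adjusted p = 0.0335), edgeR (0.0171) and DESeq2 (0.0051), without ND_WT replicate 3 (0.0386) and without HFD_TKO replicate 1 (0.0034), and Cfd was then opposite. Its ND effect was not called without ND_WT replicate 1 or 2 or ND_TKO replicate 1 or 2 (adjusted p = 0.0808, 0.0782, 0.0804 and 0.0542). Acsm3, a medium-chain acyl-CoA synthetase, had an interaction of 2.58 (adjusted p = 0.0078), and its ND effect was not called without ND_WT replicate 1 (adjusted p = 0.0675) or ND_TKO replicate 1 (0.0598).

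Among the 69 genes higher in TKO on ND only, Depp1, a gene that FOXO factors and fasting induce, measured 16.4, 18.9 and 28.6 CPM in WT against 47.1, 78.0 and 64.6 CPM in TKO on ND, and 95.2, 104 and 74.8 CPM in WT against 81.9, 93.8 and 97.2 CPM in TKO on HFD. The ND groups did not overlap and the HFD groups did, at a level that no ND_WT library reached (interaction -1.53, SE 0.30, adjusted p = 0.0025). The HFD effect was 0.00 (95% interval -0.45 to 0.46). Dpysl3, a cytoskeletal protein gene of the dihydropyrimidinase family, stood at 20.0, 19.9 and 53.7 CPM in WT and 101, 93.5 and 87.2 CPM in TKO on ND, and at 67.1, 71.7 and 67.8 CPM in WT and 55.8, 66.2 and 71.6 CPM in TKO on HFD. ND_WT replicate 3 was above the other ND_WT libraries and still below ND_TKO (interaction -1.81, SE 0.40, adjusted p = 0.0054). Dpt, dermatopontin, a matrix protein of fibroblasts, had levels on ND of 308, 290.4 and 552 CPM (WT) and 815, 789 and 793 CPM (TKO), and on HFD of 583, 557 and 677 CPM (WT) and 516, 593 and 556 CPM (TKO). Replicate 3 again stood apart within ND_WT (interaction -1.24, SE 0.27, adjusted p = 0.0049). The summed stromal list beside it was 2236 to 3913 CPM (WT) and 3125 to 3324 CPM (TKO) on ND, and 4656 to 4877 CPM (WT) and 3714 to 4311 CPM (TKO) on HFD, and its part in the Dpt values was not tested.

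Acacb, Tkt, Gpt, Smyd1, Eppk1, Depp1, Dpysl3 and Dpt kept their lost class in all 20 alternatives, as did 54 of the 214 genes in all. Mest, an imprinted gene known to rise when fat expands, had the lowest interaction of the lost genes (-2.94, adjusted p = 0.005) and was picked out after its values were seen. It measured 66.2, 47.5 and 221 CPM in WT against 617, 434 and 419.7 CPM in TKO on ND, and 858, 813 and 951 CPM in WT against 974, 511 and 458 CPM in TKO on HFD. ND_WT replicate 3 was the highest of its group and HFD_TKO replicate 1 the highest of all 12 libraries, and the ND effect was not called without ND_WT replicate 1 (adjusted p = 0.0517). Cebpd and Arrdc3 (interactions -1.64 and -1.49, adjusted p = 0.023 and 0.028), a transcription factor and an arrestin-related gene, depended on single libraries: their interactions were not called without ND_WT replicate 1 or 2 and in 3 or more other runs that left out 1 library. The number of lost genes was 87, 142 and 447 when ND_WT replicate 1, 2 or 3 was dropped. Dropping ND_TKO replicate 1, 2 or 3 gave 141, 141 and 128, and dropping HFD_WT replicate 1 gave 141.

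New effects made up most of the interaction: 3759 genes (24.1% of those tested) had an effect called on HFD only, 1134 higher (7.27%) and 2625 lower (16.8%) in TKO. For 900 and 1991 of them the ND difference was under 0.25 in size. The interaction reached 1 in size, a doubling, for 253 of the 1134 and 1246 of the 2625.

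Among the genes higher in TKO only on HFD were adipocyte receptors and enzymes. Adrb3 (chromosome 8, 27225776 to 27230845), the beta-3 adrenergic receptor through which catecholamines drive lipolysis, stood at 791, 766 and 525 CPM in WT and 529, 576 and 644 CPM in TKO on ND, and at 26.2, 25.6 and 18.1 CPM in WT and 194, 350.2 and 346 CPM in TKO on HFD. The ND groups overlapped, and on HFD every TKO library was above every WT library by a wide margin, though below both ND groups. The HFD effect was 3.58, the ND effect -0.23 (95% interval -0.74 to 0.27) and the interaction 3.81 (SE 0.33, adjusted p = 1.6e-05). Thrsp (chromosome 7, 97412933 to 97417550), Spot 14, a promoter of fatty acid synthesis, had levels on ND of 1119, 848 and 1072 CPM (WT) and 969, 699 and 873 CPM (TKO), and on HFD of 126, 138 and 102 CPM (WT) and 957, 1033 and 1030.3 CPM (TKO). The HFD_TKO libraries lay within the range of the ND groups and the HFD_WT libraries far below it (interaction 3.31, SE 0.21, adjusted p = 2.9e-06).

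Orm3, an acute-phase orosomucoid gene, measured 30.1, 20.0 and 50.4 CPM in WT against 39.7, 19.9 and 26.4 CPM in TKO on ND, and 0.547, 0.531 and 0.693 CPM in WT against 18.7, 40.9 and 40.9 CPM in TKO on HFD. Only the HFD_WT libraries were low (interaction 4.53, SE 0.50, adjusted p = 6.7e-05). Cyp2e1, a cytochrome P450 that was picked out after its values were seen because its interaction was the highest of all tested genes, stood at 7558, 10777 and 3094 CPM in WT and 2542, 3923 and 3976 CPM in TKO on ND, and at 28.5, 16.9 and 10.6 CPM in WT and 988, 937 and 736 CPM in TKO on HFD (6.47, SE 0.59, adjusted p = 2.1e-05). Its HFD_WT libraries were again the low ones, and without ND_WT replicate 3 its ND effect was also called (adjusted p = 0.0202), which made it opposite. Retnla and Mgl2, both known as markers of alternatively activated macrophages, were also higher in TKO on HFD, with interactions of 3.04 (adjusted p = 0.0013) and 2.80 (adjusted p = 3.3e-05). Mgl2 had levels on ND of 30.3, 31.8 and 51.7 CPM (WT) and 29.3, 31.7 and 23.3 CPM (TKO), and on HFD of 14.4, 14.2 and 13.5 CPM (WT) and 99.1, 66.5 and 75.2 CPM (TKO). The summed macrophage list was lower in every HFD_TKO library than in every HFD_WT library. Other genes known from alternatively activated or resident macrophages, picked out after their values were seen, went in either direction on HFD. Mrc1, the mannose receptor CD206, was lower in TKO (-1.22, adjusted p = 0.0034; interaction -1.11, adjusted p = 0.052), and Folr2, a folate receptor, was lower too (-1.74; interaction -1.49, adjusted p = 0.00096). Cd163, a haemoglobin scavenger receptor, was higher (1.03; interaction 0.95, adjusted p = 0.044). The interaction of Cd163 was not called in 9 of 12 runs that left out 1 library or without the filter on low values (adjusted p = 0.0661 to 0.101), and that of Mrc1 was called in 8 alternatives.

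The 2625 genes lower in TKO only on HFD included Itgax (chromosome 7, 128129526 to 128150657), the integrin CD11c of dendritic cells and of macrophages in obese fat, which measured 6.77, 7.93 and 12.8 CPM in WT against 16.7, 7.88 and 7.60 CPM in TKO on ND, and 299, 365 and 292 CPM in WT against 23.8, 24.5 and 25.8 CPM in TKO on HFD. HFD_WT stood alone, more than 10 times above the highest of the other 9 libraries (interaction -3.79, SE 0.37, adjusted p = 3.0e-05). Gpnmb, a glycoprotein of lipid-laden macrophages, stood at 71.4, 61.9 and 27.3 CPM in WT and 99.6, 37.8 and 32.4 CPM in TKO on ND, and at 1721, 2028 and 1249 CPM in WT and 87.3, 125 and 161 CPM in TKO on HFD (interaction -3.75, SE 0.61, adjusted p = 0.00079). Myh15, a myosin heavy chain gene, had the lowest interaction of the new genes, -4.52 (adjusted p = 1.2e-05). It stood at 36.3, 53.3 and 65.3 CPM in HFD_WT and 1.86, 1.10 and 0.914 in HFD_TKO, and at most 0.692 CPM in any ND library. Its ND levels were near the 0.117 to 0.143 CPM that 3 reads give, so no ND fold is stated.

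**Figure D4:**
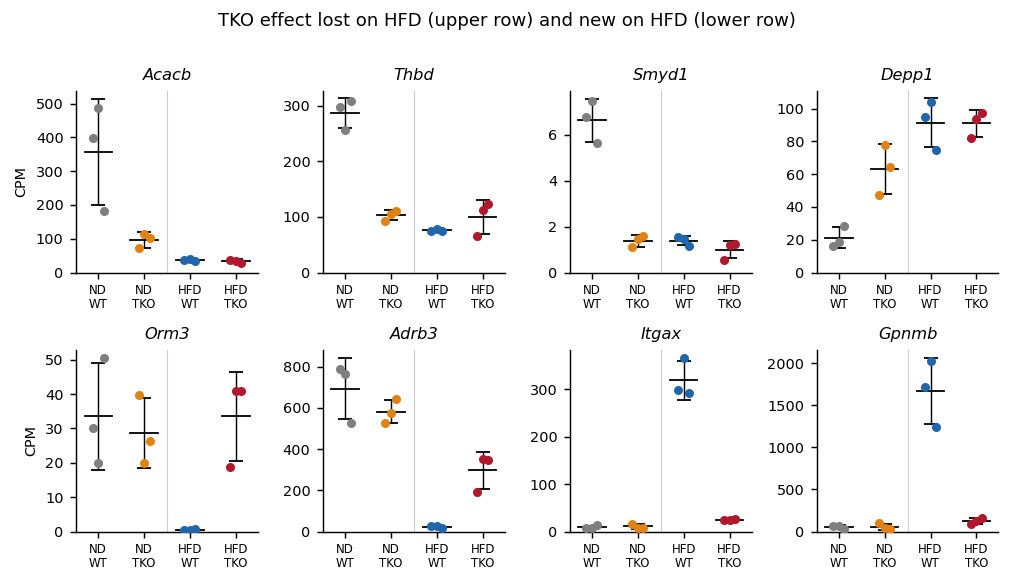
Levels in each library (y axis, CPM, starting at 0) of 4 genes with a knockout effect called on normal diet only (upper row) and 4 with one called on high-fat diet only (lower row); 1 panel per gene, 1 point per library, a horizontal line at the mean and a bar of 1 SD (n = 3). In the lower row the HFD_WT libraries stand alone, low for Orm3 and Adrb3 and high for Itgax and Gpnmb.

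Gene lists were then read by the share of their tested members with an interaction call, beside 9.94% higher and 18.8% lower over all tested genes. Unless 1 diet is named, higher and lower refer to the interaction and not to the transcript level on the diets. In lipogenesis the interaction was higher for 13 of 21 members and lower for 0. Median effects were -0.41 on ND, 0.70 on HFD and 1.33 for the interaction. The lipogenesis list summed to 63600 to 74870 CPM (WT) and 48970 to 57270 CPM (TKO) on ND. On HFD it summed to 18210 to 19260 CPM (WT) and 37690 to 46270 CPM (TKO). Mlxipl and Pnpla3 were opposite, Acacb and Tkt were lost, and 7 members were new. Fasn, fatty acid synthase, had effects of -0.91 (adjusted p = 0.062) and 0.95 (interaction 1.86, adjusted p = 0.0028), and Acly, which makes cytosolic acetyl-CoA from citrate, of -0.73 (adjusted p = 0.06) and 0.77 (1.5, adjusted p = 0.0025). Both ND effects missed the test and passed it with DESeq2 (adjusted p = 0.0118 for Fasn and 0.0125 for Acly), so these genes stood between the new and the opposite class. The interaction of Scd1, a stearoyl-CoA desaturase (1.71, adjusted p = 0.0046), was not called without the filter on low values (adjusted p = 0.465).

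Branched-chain amino acid breakdown had the highest share of higher calls, 17 of 18 members and 0 lower, with a median interaction of 0.81. Of these, Auh was lost, and Bcat2, the mitochondrial aminotransferase of the first step, was new (-0.52 on ND, 1.07 on HFD, interaction 1.59, adjusted p = 0.00016). Adipocyte hormones and identity had 8 of 16 members higher and 0 lower (median 0.61). Adipoq was among the 8 (0.33 and 1.44, interaction 1.11, adjusted p = 0.0032), and Lep, leptin, was not called (-0.01, 95% interval -1.46 to 1.44). Lep measured 689, 495 and 2588 CPM in the ND_WT libraries, the third standing apart, and 1891 to 3098 CPM on HFD. Without ND_WT replicate 3 its interaction was -0.72 (adjusted p = 0.117), so the value near 0 rests on that library. The summed adipocyte list was 65070 to 75310 CPM (WT) and 72570 to 77510 CPM (TKO) on ND, and 36310 to 39040 CPM (WT) and 60580 to 61140 CPM (TKO) on HFD. It was lowest in HFD_WT, beside the metabolic genes above, and its part in their values was not tested.

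The insulin and glucose uptake list had 6 of 17 members higher and 2 lower (median 0.46), Slc2a4 the only opposite one and Irs1, the insulin receptor substrate, new (1.33, adjusted p = 0.015). Without ND_WT replicate 3, 8 members of this list were higher and its median was 0.26. The adrenergic and lipolysis list had 7 of 18 higher and 1 lower (0.23). Adrb3 and the lipases Pnpla2 (1.12, adjusted p = 0.0019) and Lipe (0.95, adjusted p = 0.0066) had higher interactions. Adcy3, an adenylyl cyclase, had a lower one (-1.34, adjusted p = 0.00044). Nuclear-encoded respiratory chain genes had 14 of 25 higher and 0 lower (median 0.37); 8 or 9 were called without ND_WT replicate 1 or 2, ND_TKO replicate 1, HFD_WT replicate 1 or 2 or HFD_TKO replicate 1. Fatty acid oxidation had 9 of 21 higher and 1 lower (0.30). It had 6 higher without ND_WT replicate 1 or 2, ND_TKO replicate 2 or 3, any HFD_WT replicate or HFD_TKO replicate 2. With DESeq2 or without ND_WT replicate 3 it had 12. In the glyceroneogenesis and triglyceride list, 4 of 12 were higher and 1 lower. The 1 lower was Pdk4, an inhibitor of pyruvate entry into the citrate cycle, which was new with effects of 0.92 (adjusted p = 0.051) and -1.17 (interaction -2.09, adjusted p = 0.00097) and whose ND effect was called in 7 alternatives. The clock list had 6 of 13 higher and 2 lower. Nr1d1 (1.43, adjusted p = 0.00043) and Cry2, both repressors, had higher interactions, and the activator Npas2 (-1.13, adjusted p = 0.0029) a lower one. Other members were not called and went in either direction: Per1 (-0.40), Cry1 (-0.33), Clock (-0.14), Per2 (0.37) and Nr1d2 (0.21).

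The thermogenic list had 2 of 14 higher and 1 lower, with a median interaction of 0.21. Without HFD_TKO replicate 1 it had 1 higher and 3 lower, with a median of 0.05, and in 6 other runs that left out 1 library 1 was higher (median 0.13 without HFD_WT replicate 3). Cidea, a lipid droplet protein gene also used to mark thermogenic fat, was lower in TKO on both diets (-3.31 on ND and -2.11 on HFD). Its interaction (1.2, adjusted p = 0.0039) was not called with edgeR (adjusted p = 0.0686) or DESeq2 (0.077). Ucp3, a mitochondrial carrier, was lower by a like amount on both diets (-2.21 and -2.06), with an interaction of 0.15 (95% interval -0.23 to 0.54, adjusted p = 0.57).

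Matrix genes had called effects on ND as well: 9 of 28 members of the extracellular matrix list were higher in TKO there and 1 lower, against 2.16% and 3.54% of all tested genes. For the interaction the list had 0 members higher and 10 lower (median -0.52), with a median effect of 0.38 on ND and -0.22 on HFD. Lum was opposite and Col5a2, a fibrillar collagen chain, was lost (-1.08, adjusted p = 0.02; its ND effect was not called in 6 alternatives). Mmp3, a matrix metalloprotease, was new (-3.84, adjusted p = 3.1e-05), as was Timp1, a metalloprotease inhibitor (-1.86, adjusted p = 0.0081). The stromal list had 0 of 16 higher and 4 lower, and 8 lower without ND_WT replicate 3.

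In the immune and proliferation lists most interaction calls were lower and came from HFD, where 31.6% of all tested genes were lower in TKO. Macrophage markers had 1 of 18 higher and 14 lower (median -1.69, with 15 lower on HFD and 1 on ND). Lipid-associated macrophage genes had 0 higher and 15 of 15 lower (-2.63, with 14 lower on HFD and 1 higher on ND). The list of cytokines and chemokines had 0 higher and 11 of 20 lower (-1.35, or -0.71 with an added constant of 5). Of this list 19 members were tested without any 1 HFD_WT replicate. The 11 were Tnf, Il10, Il1rn, Ccl2, Ccl3, Ccl4, Ccl5, Ccl6, Ccl9, Cxcl10 and Cxcl14. Il1b, Il18, Ccl7, Ccl8, Cxcl1, Cxcl2, Cxcl12, Cxcl13 and Csf1 were not called. T and NK cell genes had 0 higher and 12 of 16 lower (-1.73). Many had few reads: the filter at 2 CPM left 9 of them, with 8 lower. Without any 1 HFD_WT replicate 15 were tested, so membership rested in part on the group with the highest levels. The median was -0.80 with an added constant of 5 and -2.75 with edgeR. Cd68, a lysosomal glycoprotein of macrophages, had effects of -0.30 and -2.79 (interaction -2.49, adjusted p = 3.5e-05), and Trem2, the lipid-sensing receptor of such cells, of -0.52 and -3.43 (-2.91, adjusted p = 0.00046). The lipid-associated list summed to 1083 to 1156 CPM (WT) and 1023 to 1410 CPM (TKO) on ND, and 7927 to 9873 CPM (WT) and 1882 to 2404 CPM (TKO) on HFD, so the ND groups overlapped and the HFD groups did not. Cell cycle genes had 0 of 19 higher and 18 lower (-1.42; 19 lower on HFD, 0 called on ND), with Top2a, a topoisomerase of dividing cells, at 0.12 and -1.71 (-1.84, adjusted p = 0.00017).

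Granulocyte and mast cell genes had 0 of 11 higher and 8 lower (5 lower with edgeR). The filter at 2 CPM left 8 of them, with 7 lower, and 10 were tested without any 1 HFD_WT replicate. Interferon-stimulated genes had 0 of 18 higher and 3 lower (5 without HFD_WT replicate 2), and the TET and DNA methyltransferase list 0 of 8 and 5. The last count was 3 with TMM scaling, edgeR or DESeq2, and without ND_TKO replicate 1 or 2, HFD_WT replicate 2 or 3, or HFD_TKO replicate 1 or 2. B cell genes had 0 of 9 higher and 2 lower, and 5 with DESeq2, 4 without ND_WT replicate 2 and 9 without HFD_WT replicate 2. The epididymal list had 2 tested members and skeletal muscle 4, of which 0 and 1 were higher and 0 and 1 lower. The endothelial and mural list had 0 of 14 higher and 2 lower, with a median of 0.09 that became -0.12 without ND_WT replicate 3, and 4 lower without ND_TKO replicate 3. Of 9 mesothelial genes limma called 0, with 0 at an unadjusted p under 0.05, 0 by edgeR, 1 by DESeq2 and 6 higher without HFD_TKO replicate 1. Their summed level was 311.4 to 459.8 CPM (WT) and 163.6 to 299.8 CPM (TKO) on ND, and 119.5 to 158.1 CPM (WT) and 51.73 to 239.7 CPM (TKO) on HFD.

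**Figure D5:**
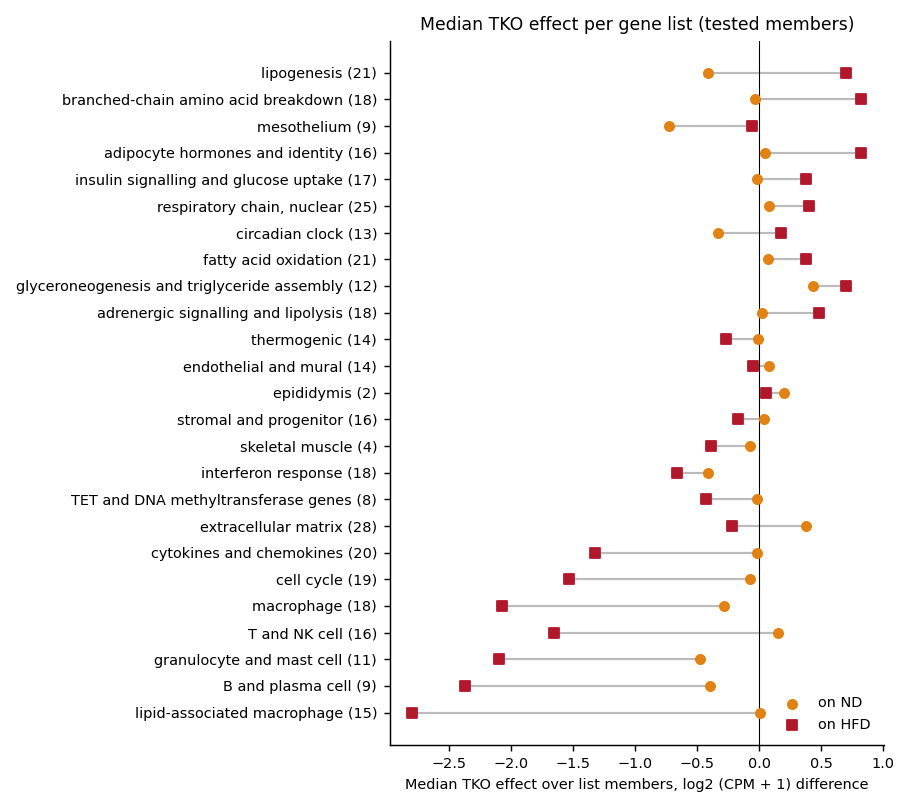
Median knockout effect over the tested members of each gene list (x axis, log2 difference TKO minus WT) on normal diet (circles) and on high-fat diet (squares), joined by a grey line, with the number of tested members in brackets and lists ordered by their median interaction. The lipogenesis line crosses 0 from -0.41 to 0.70, the extracellular matrix line from 0.38 to -0.22, and the macrophage and lymphocyte lists extend far to the left on high-fat diet only.

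For orientation around the threshold, the genes just inside it were Tmem47 (interaction -0.48, adjusted p = 0.04994) and Med12l (0.72, 0.04996), and the genes just outside were Cenpq (-0.74, 0.0501) and Mrps14 (0.30, 0.05017). The interaction genes whose effect had 1 sign on both diets were fewer: 127 (0.814%) were larger and 10 (0.0641%) smaller on HFD. Among the 10, Sptlc3, of the serine palmitoyltransferase complex of sphingolipid synthesis, had effects of 4.34 on ND and 1.25 on HFD (interaction -3.09, SE 0.18, adjusted p = 2.2e-06), with at most 0.239 CPM in ND_WT, which is near the level of 3 reads.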

How the data were processed

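RNA of epididymal fat was sequenced in 12 libraries, 3 per group, and groups were taken from the titles. The authors deposited a table of CPM, named raw CPM per the file headers. Per the submitters' processing notes, the tools were STAR 2.7.3a, featureCounts 2.0.0 and DESeq2, with build mm10. The use of strand was not given in the sources used here, so overlapping and antisense genes are uncertain. A set of 89 tested genes shared identical values with another gene. Limma 3.58.1 in R 4.3.3 was the main test. Genes at 0.5 CPM or more in 3 libraries were tested on log2(CPM + 1) with limma's trended variance, 1 mean per group and 8 residual degrees of freedom. Benjamini-Hochberg adjustment covered all 15597 genes, calls were made at 0.05, and adjusted p-values are limma's unless another tool is named. The interaction was tested as (HFD_TKO minus HFD_WT) minus (ND_TKO minus ND_WT). The script was tested on simulated data.

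CPM scales each library to its total. After an offset of 0.01 read, 100% of values were whole reads within 0.05 read (20973140 to 25606629 per library), on which edgeR 4.0.16 and DESeq2 1.42.0 were run as alternatives. A count of 0 allows up to 3 reads, 0.117 to 0.143 CPM, counting error only. The 3 entries without a symbol held 0.0313% to 0.0679% of reads and were left out. Other alternatives were TMM scaling, added constants of 0.5 and 5, no filter, a filter at 2 CPM, a replicate block and leaving out each library.

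The members, gene lists and panel were chosen with earlier results of these data known. Named genes were the panel, the 8 largest interactions per class (a mean of at least 5 CPM in a group and, for lost and new genes, an effect under 0.5 on the other diet), list members in the opposite or lost class, and up to 3 others per list. A gene that the rule names is not reported here. No pair of replicates agreed within sampling noise. Promoters of 12153 tested genes were matched by Entrez gene ID in RefSeq.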

Additional observations from a re-analysis of the deposited data

Results flagged for a closer look

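Each result here is a difference between the diets in the knockout effect that was tested by the interaction itself (limma, all 12 libraries). The interaction was called for 4476 genes, and 105 of them had called effects of opposite sign.

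Lower interactions, for genes higher in TKO on ND and lower on HFD, were -4.26 for Gpr50, -3.98 for Ubd, -3.64 for Rgs2, -3.56 for Serpina3f, -3.33 for Pex5l, -2.88 for Retreg1, -2.57 for Lum and -2.22 for Ddit4. Higher interactions, for genes lower in TKO on ND and higher on HFD, were 3.16 for Alb, 2.84 for Prodh, 2.68 for Hsd11b1, 2.61 for Retn, 2.60 for Slc2a4, 2.25 for Lratd1, 2.22 for Pck1 and 2.21 for Mlxipl. With 3 libraries per group, no group was tested for outlying libraries.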

How the results depend on the processing

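Of 3271 interaction values of the 164 named genes under alternatives, 3140 kept their direction and side of the threshold, 97 were no longer called, 34 became called and 0 reversed. Many of these genes were named for a large interaction in the same libraries, so this follows largely from the choice. Over whole classes, 103 of 105 opposite, 133 of 214 lost and 2569 of 3759 new genes kept the interaction call in every alternative. DESeq2 called 1400 ND effects (889 in the main test) and 215 opposite genes, 95 higher and 120 lower on ND. TMM scaling, edgeR and DESeq2 gave 1984, 2026 and 2151 higher and 2533, 2306 and 2452 lower interactions, so 43.9%, 46.8% and 46.7% of calls were higher against 34.6%. TMM moved the median of all genes by 0.05 on ND, 0.11 on HFD and 0.07 for the interaction. Leaving out 1 library gave 3441 to 5038 interaction calls, 349 to 1851 ND calls (349, 505 and 1851 without ND_WT replicate 1, 2 or 3; 514 and 433 without ND_TKO replicate 1 or 3), 5981 to 7809 HFD calls, 41 to 299 opposite genes (18 to 143 higher and 23 to 156 lower on ND), 87 to 447 lost and 2969 to 3769 new genes.

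Of 18 pairs of libraries with the same replicate number, 5 correlated over 0.1 (-0.497 to 0.562). By the same measure, 4 of 12 libraries correlated best with their own number. Pairs with different numbers ran from -0.528 to 0.56, so pairs with the same number did not stand apart by their range. Whether the numbers pair the libraries was not tested. With the replicate block the respiratory chain list had 9 higher calls (14 without it) and the TET and DNA methyltransferase list 3 lower (5), and there were 4228 interaction calls, 751 ND calls, 7114 HFD calls, 91 opposite, 190 lost and 3597 new genes. With 3 libraries per group, a missing call does not show that an effect is 0, and genes near 3 reads per library carry no firm fold.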
